A study of Mus musculus with 8 samples.

Results

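The 9 genes described here encode structural proteins of the adherens and tight junctions between epithelial cells. They were taken by symbol from a table of 54427 genes, and all 9 were found. The adherens junction genes were Cdh1, Ctnnb1, Jup, Ctnna1 and Ctnnd1, the tight junction genes were Tjp1, Ocln and F11r, and the epithelial adhesion gene was Epcam. The genes were chosen by their place in these junctions and selected on earlier values of the same comparison, in which Cdh1 was lower in the group called AP_OCA, so the difference between groups is described for these genes and is not tested.

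Epithelial cells hold together through adherens junctions, in which E-cadherin binds E-cadherin of the next cell and is tied to the actin cytoskeleton by catenins. Closer to the lumen, tight junctions seal the space between cells. In the exocrine pancreas these junctions line the acinar lumen and keep secreted digestive enzymes apart from the tissue around the acinus.

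The cells were freshly isolated primary pancreatic acinar cells, the enzyme-secreting cells of the exocrine pancreas, from mice of wild-type genotype. Injury was induced with 1 µM cholecystokinin octapeptide (CCK), a secretagogue, given for 6 h. The sample titles gave 4 libraries as AP and 4 as AP_OCA, where OCA was the added agent at 2.5 µM. The treatment text naming OCA is the same for all 8 samples, so the reading of AP as cells without OCA rests on the titles. No group without CCK was analysed here, the age and sex of the mice were not given, and the sources used here do not say whether replicates came from separate animals. P-values therefore measure the spread between these samples, which may be technical.

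Values are given as CPM, the deposited values taken back from the log2 scale and scaled to a sum of 1000000 per library. The number of reads behind each library is unknown. AP_OCA replicate 2 had 21010 genes above 0, against 15394 to 16640 in the other 7 libraries. Acinar markers, such as carboxypeptidase, elastase, amylase and lipase genes, summed to 391680 to 399232 CPM in AP. They summed to 343351 to 387393 CPM in AP_OCA replicates 1, 3 and 4, and to 314634 CPM in AP_OCA replicate 2. In AP_OCA replicates 1, 3 and 4, 1 of 12 acinar markers lay below every AP library, beside 12.1% of all tested genes. The most abundant genes dominate this sum and could hardly move: Ctrb1, at rank 1, was at 116519 to 116526 CPM in every library. AP_OCA replicate 2 stood apart. Its correlation with the others over log2 values was between 0.561 and 0.635, against 0.873 to 0.981 among the other 7 libraries. Its lymphocyte markers summed to 12670 CPM, against 22.4 to 76.4 CPM in the other 7, and Cd3e and Cd3g were at 0 in those 7. Most of that sum was Cd74, at 9263 CPM in AP_OCA replicate 2 and 20.3 to 40.1 CPM in the other 7. The 9 genes, the wider lists and the genes past the test are therefore given with all 8 libraries and with 7, without AP_OCA replicate 2, and other genes without it. In bulk RNA, fewer cells of a type and less RNA per cell cannot be told apart.

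Cdh1, which encodes E-cadherin, lies on chromosome 8 of the mm10 build at chr8:106603351-106670246 on the plus strand. It was among the most abundant messages, at ranks 57 to 67 in the AP libraries. Its level was 1018, 818, 799 and 952 CPM in AP replicates 1 to 4, and 534, 569 and 328 CPM in AP_OCA replicates 1, 3 and 4. AP_OCA replicate 2 had 28.5 CPM, at rank 1830. Every AP_OCA library lay below every AP library, and AP_OCA replicate 4 was the lowest of the 3 other AP_OCA libraries. The means were 897 ± 106 CPM (SD, n = 4) in AP and 477 ± 130 CPM (SD, n = 3) in AP_OCA without replicate 2, or 365 ± 248 CPM (SD, n = 4) with it. On the scale of log2(CPM + 1), the difference between AP_OCA and AP was -0.94 ± 0.20 (SE) with 7 libraries and -1.94 ± 0.85 with 8.

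Ctnnb1 encodes beta-catenin, which binds the cytoplasmic tail of E-cadherin and also acts in Wnt signalling. It lies at chr9:120929216-120960507 on the plus strand. Its level was 92.1, 95.4, 74.9 and 85.9 CPM in the AP libraries, 60.1, 69.0 and 26.1 CPM in AP_OCA replicates 1, 3 and 4, and 25.4 CPM in AP_OCA replicate 2. No AP_OCA library reached the lowest AP library, and AP_OCA replicates 2 and 4 were close to each other. Between the groups the log2 difference was -0.85 ± 0.27 (SE) with 7 libraries and -1.07 ± 0.36 with 8. It was -0.42 when AP_OCA replicate 4 was left out of the 7 as well, so that library carried much of it.

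Jup encodes plakoglobin, a relative of beta-catenin that serves both adherens junctions and desmosomes. It lies at chr11:100368958-100397763 on the minus strand. Its level was 249.7, 194, 269.7 and 247 CPM in AP, 165, 161 and 85.8 CPM in AP_OCA replicates 1, 3 and 4, and 24.8 CPM in AP_OCA replicate 2. The groups again did not overlap, and AP_OCA replicate 4 was again the lowest apart from AP_OCA replicate 2. AP_OCA differed from AP by a log2 value of -0.85 ± 0.23 (SE) with 7 libraries and -1.44 ± 0.55 with 8. Without AP_OCA replicate 4 among the 7 it was -0.54.

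Ctnna1 encodes alpha-catenin, the link from the cadherin complex to actin, and lies at chr18:35118859-35254779 on the plus strand. Its level was 113, 108, 82.1 and 116 CPM in AP, 94.8, 84.7 and 72.4 CPM in AP_OCA replicates 1, 3 and 4, and 34.7 CPM in AP_OCA replicate 2. AP replicate 3 lay inside the AP_OCA range, so the groups overlapped. The log2 difference was -0.31 ± 0.18 (SE) with 7 libraries and -0.62 ± 0.33 with 8.

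Ctnnd1 encodes catenin delta-1, which binds the juxtamembrane part of cadherins and keeps them at the cell surface. It lies at chr2:84600071-84650765 on the minus strand, and 4482 of its 7319 exonic bases are shared with the same-strand model Gm28635, listed at 0 in all libraries, so its level is uncertain. Its level was 15.6, 19.4, 14.7 and 19.4 CPM in AP, 18.7, 14.6 and 22.99 CPM in AP_OCA replicates 1, 3 and 4, and 9.20 CPM in AP_OCA replicate 2. Among the other 7 libraries the highest and the lowest values were both in AP_OCA. Its log2 difference was 0.10 ± 0.21 (SE) with 7 libraries and -0.13 ± 0.28 with 8.

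Tjp1 encodes a zonula occludens (ZO) scaffold under the tight junction membrane, and lies at chr7:65296165-65527781 on the minus strand. Its level was 31.01, 37.7, 11.7 and 36.3 CPM in AP, 27.6, 31.9 and 28.5 CPM in AP_OCA replicates 1, 3 and 4, and 3.37 CPM in AP_OCA replicate 2. AP replicate 3 was far below the other AP libraries, and the remaining AP and AP_OCA values overlapped. The resulting log2 difference was 0.13 ± 0.34 (SE) with 7 libraries and -0.57 ± 0.66 with 8.

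Ocln encodes occludin, a membrane-spanning tight junction protein, and lies at chr13:100496507-100552718 on the minus strand. Its level was 47.1, 48.1, 42.3 and 46.5 CPM in AP, 50.9, 48.4 and 37.5 CPM in AP_OCA replicates 1, 3 and 4, and 1.84 CPM in AP_OCA replicate 2. AP_OCA held both the highest and the lowest of the 7 other libraries. The log2 difference was -0.02 ± 0.17 (SE) with 7 libraries and -1.03 ± 0.83 with 8.

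F11r encodes junctional adhesion molecule A, an immunoglobulin-family protein of tight junctions, and lies at chr1:171437535-171464603 on the plus strand. Its level was 55.7, 54.2, 61.2 and 55.9 CPM in AP, 49.98, 49.1 and 41.4 CPM in AP_OCA replicates 1, 3 and 4, and 13.1 CPM in AP_OCA replicate 2. Every AP_OCA library lay below every AP library, by a smaller margin than for Cdh1 among the 7. The log2 difference was -0.28 ± 0.16 (SE) with 7 libraries and -0.72 ± 0.40 with 8.

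Epcam encodes the epithelial cell adhesion molecule, a surface protein of simple epithelia that is widely used as an epithelial marker. It lies at chr17:87635979-87651129 on the plus strand. Its level was 74.6, 64.1, 56.1 and 72.6 CPM in AP, 70.9, 73.4 and 58.6 CPM in AP_OCA replicates 1, 3 and 4, and 4.14 CPM in AP_OCA replicate 2. All 3 AP_OCA libraries other than replicate 2 lay within the AP range. AP_OCA minus AP came to a log2 value of 0.02 ± 0.17 (SE) with 7 libraries and -0.91 ± 0.78 with 8.

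**Figure D1:**
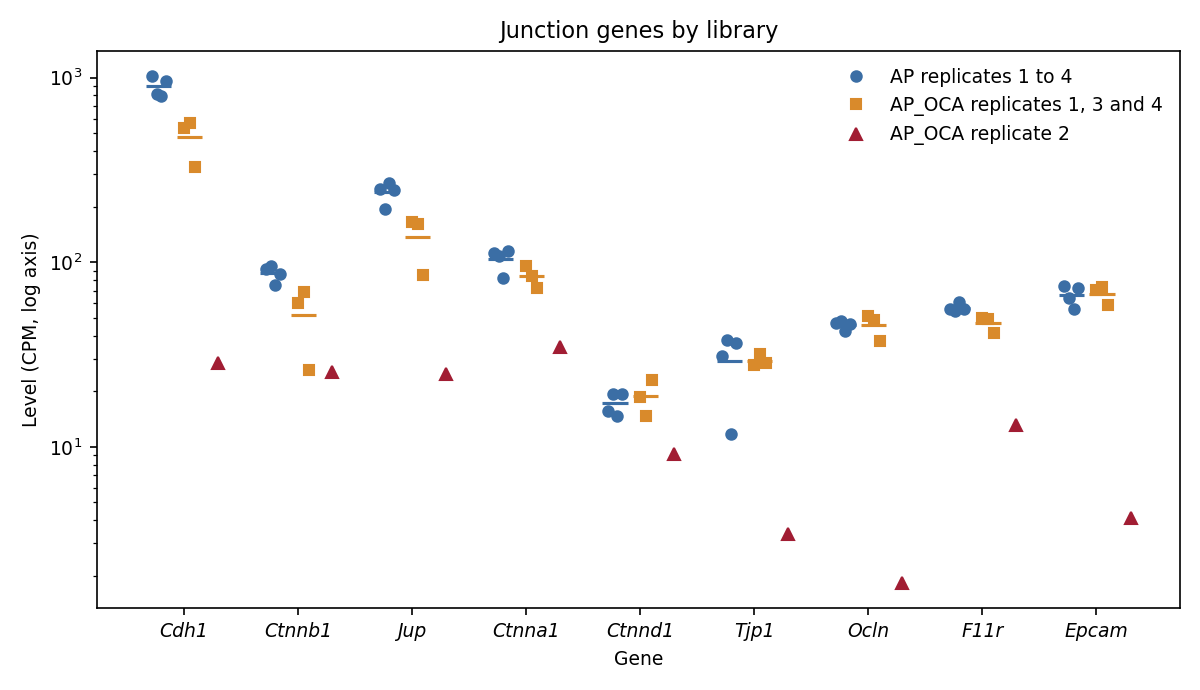
Level of each of the 9 junction genes in every library, in CPM on a log axis, with AP, AP_OCA and AP_OCA replicate 2 marked apart and bars at the means of 4 AP and 3 AP_OCA libraries. Cdh1, Ctnnb1, Jup and F11r have every AP_OCA library below every AP library, and AP_OCA replicate 2 is the lowest library for all 9 genes.

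Set beside each other, the 9 genes spanned a range of differences. Without AP_OCA replicate 2, the AP_OCA mean was 53.2% of the AP mean for Cdh1, 57.2% for Jup and 59.4% for Ctnnb1. It was 80.3% for Ctnna1 and 82.5% for F11r, and the means of Ctnnd1, Tjp1, Ocln and Epcam lay between 99.1% and 109% of those in AP. Every AP_OCA library lay below every AP library for 4 of the 9 genes, with 8 libraries and with 7. Among all tested genes this held for 8.57% with 8 libraries and for 12.1% with 7. Since the genes were chosen with this comparison known, nothing is read from that count. The median log2 difference of the 9 genes was -0.28 with 7 libraries and -0.91 with 8, beside 0.00 and -0.01 over all tested genes.

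**Figure D2:**
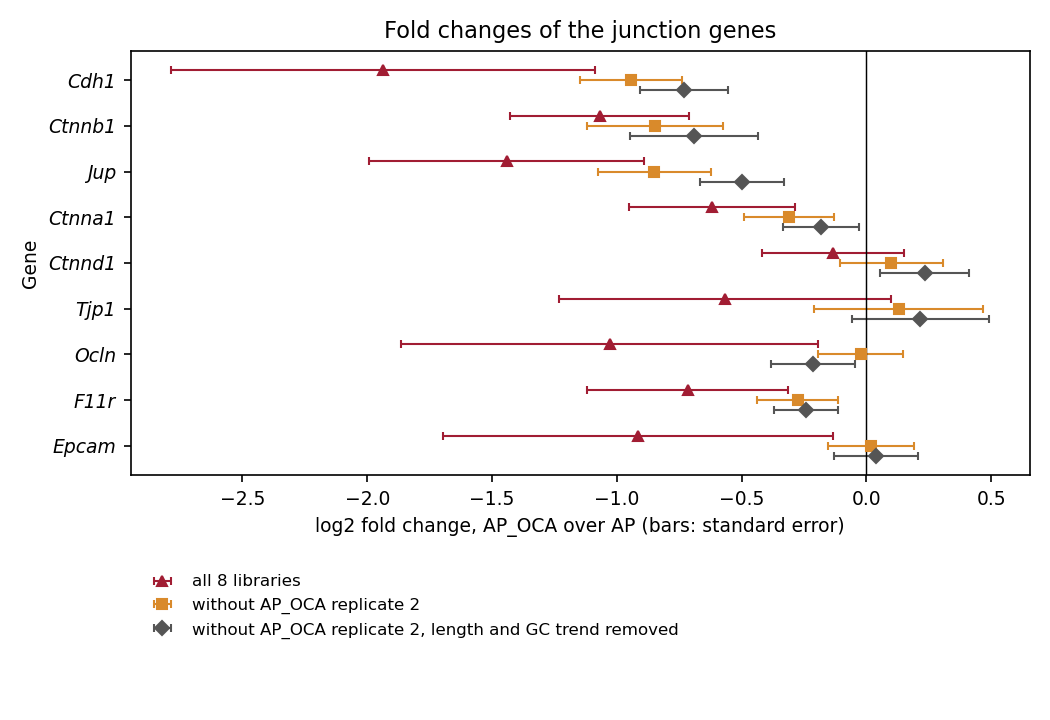
Difference between AP_OCA and AP for each junction gene on the log2(CPM + 1) scale, with standard errors, from the fits with 8 and with 7 libraries. Diamonds are the fit with 7 libraries after a trend on transcript length and GC content was removed. Cdh1, Ctnnb1 and Jup are the lowest with 7 libraries and no trend removed, at -0.94, -0.85 and -0.85, while Ctnnd1, Tjp1, Ocln and Epcam are near 0.

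These differences were read again after a smooth trend of log2 difference on transcript length and GC content, fitted over all tested genes, had been taken away. With 7 libraries Cdh1 then stood at -0.73, Ctnnb1 at -0.69, Jup at -0.50, F11r at -0.24 and Ctnna1 at -0.18. Jup had the highest GC content of the 9 genes, 58.8%, against a median of 50.6% over the tested genes, and Ocln the lowest, 42.0%.

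Levels between genes were compared per kilobase of transcript. This assumes that the deposited values had not already been divided by length, which the sources used here do not say. The order and the ratios per kb rest on it. In AP the order was Cdh1 at 202 CPM per kb, Jup at 74.9, Epcam at 32.8, Ctnna1 at 28.0, Ctnnb1 at 24.0, F11r at 22.5, Ocln at 11.3, Tjp1 at 4.14 and Ctnnd1 at 2.72. The AP ranges of Epcam and Ctnna1 overlapped, as did those of Ctnna1 and Ctnnb1, of Ctnnb1 and F11r, and of Tjp1 and Ctnnd1. The other neighbours in the order were separated in all 4 AP libraries.

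Cdh1 alone made up 50.1% ± 1.67 (SD, n = 4) of the summed level per kb of the 9 genes in AP, and 41.5% ± 2.25 (SD, n = 3) in AP_OCA without replicate 2. The ranges, 48.3% to 52.2% and 39.1% to 43.6%, did not overlap, and AP_OCA replicate 2 had 16.1%. The ratio of Cdh1 to the sum of its alternative tail partners Ctnnb1 and Jup, per kb, was 2.05 ± 0.225 in AP and 1.93 ± 0.218 in AP_OCA without replicate 2, with overlapping ranges. In AP_OCA replicate 2 that ratio was 0.437. The ratio of Cdh1 to Epcam was 6.19 ± 0.297 in AP, 3.21 ± 0.544 in AP_OCA without replicate 2 and 3.18 in AP_OCA replicate 2. In those 7 libraries the ratio of Cdh1 to Ctnnb1 plus Jup thus overlapped between the groups, while the ratio of Cdh1 to Epcam did not. Since Cdh1 was chosen with its lower level in AP_OCA known, nothing is read from its share or from these ratios. The ratio of Jup to Ctnnb1 was 3.17 ± 0.729 in AP and 3.15 ± 0.538 in AP_OCA without replicate 2, and varied from 2.30 to 4.07 among the AP libraries.

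AP_OCA replicate 2 lay below all other libraries for all 9 genes. Over all tested genes 36.9% lay below and 32.5% above all others in that library. For 7 of the 9 genes the gap to the next library was over 2-fold, as it was for 20.4% of all tested genes. The lowest other library was 20.3-fold higher for Ocln, 13.6-fold for Epcam and 11.5-fold for Cdh1. It was 3.46-fold higher for Tjp1, 3.45-fold for Jup, 3.17-fold for F11r and 2.09-fold for Ctnna1. Ctnnd1, at 1.59-fold, and Ctnnb1, at 1.03-fold, were the exceptions. The deposited values look quantile normalised, which sets each value by its rank within the library. These folds may therefore differ from ratios of measured abundance. The order per kb in that library ran Ctnna1, Jup, Ctnnb1, Cdh1, F11r, Epcam, Ctnnd1, Tjp1 and Ocln, so that Cdh1 was no longer first.

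The same library was low for many other junction genes, though not for all. Of 140 other junction genes tested, 91 lay below all other libraries and 75 did so by more than 2-fold. These included all 7 desmosome genes and all 6 keratins of simple epithelium, each by more than 2-fold. In the other direction, 32.5% of all tested genes lay above all other libraries, and 13.8% did so by more than 2-fold. Of the 140 junction genes, 23 lay above all other libraries, 9 of them by more than 2-fold. Among the latter, named after their values were seen, were Cldn5, which encodes a claudin of endothelial cells, at 26.9 CPM against at most 0.770, and Lef1, a transcription factor gene of the beta-catenin list, at 36.5 CPM and listed at 0 elsewhere. The lists were not alike: 2 of 5 gap junction genes lay below and 2 above all others, as did 9 and 9 of the 22 genes of E-cadherin shedding and turnover. The shares in these lists were near those of all tested genes, 36.9% below and 32.5% above. Krt8, a keratin of simple epithelia, had 423 CPM there against 4058 to 8179 CPM elsewhere, and Dsp, which encodes the desmosomal plaque protein desmoplakin, had 5.63 CPM against 101 to 186. Beside this, duct markers summed to 41.0 CPM in that library and to 274 to 471 CPM in the others, islet markers to 8.95 CPM against 507 to 2153, and myeloid markers to 792 CPM against 93.6 to 174. Stellate and fibroblast markers summed to 491 CPM there against 111 to 239, and endothelial markers to 163 CPM against 28.0 to 71.3. Adipocyte and mesothelial markers summed to 427 CPM against 13.0 to 87.2. AP_OCA replicate 2 was more than 2-fold above the other libraries for 10 of 10 lymphocyte and 6 of 8 myeloid markers. The same held for 4 of 10 stellate and fibroblast, 2 of 9 endothelial and 4 of 8 adipocyte and mesothelial markers, and for 13.8% of all tested genes. It was more than 2-fold below them for 5 of 12 acinar, 5 of 8 duct and 8 of 8 islet markers. The same held for 1 of 8 adipocyte and mesothelial markers, and for 20.4% of all tested genes. Of the 12 acinar markers, 9 lay below all other libraries, beside 36.9% of all tested genes. The part of these cell-type markers in the junction gene values was not tested.

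**Figure D3:**
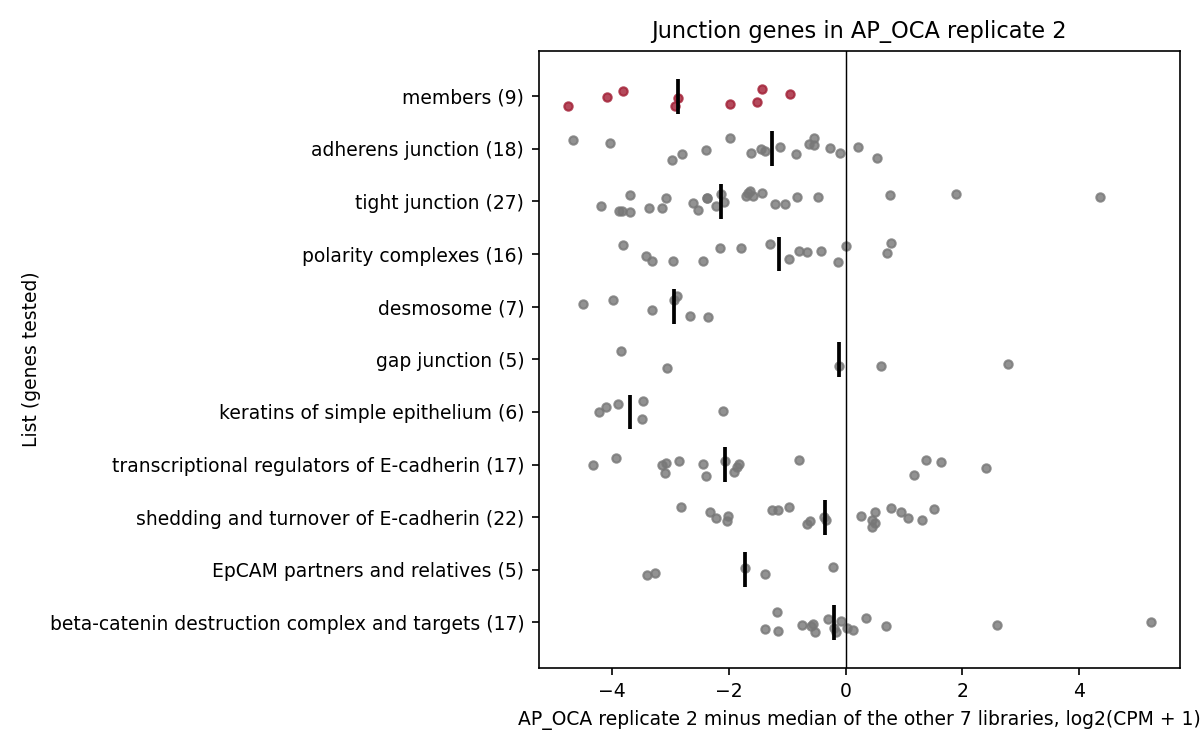
Log2(CPM + 1) in AP_OCA replicate 2 minus the median of the other 7 libraries for the 9 junction genes and for the other junction lists, each point being 1 gene and each bar a list's median. All 9 genes lie below 0, as do all 7 desmosome genes and all 6 keratins.

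Promoters are shown for 6 genes, those with an entry in the promoter table except Ctnnd1, whose level is uncertain. AP and AP_OCA did not overlap for Ctnnb1, Jup and F11r, and overlapped for Tjp1, Ocln and Epcam. Each promoter runs from 250 bases before to 50 after the first start listed for the gene and comes from RefSeq on GRCm38.p6. The Tjp1 and Ctnnb1 windows lie wholly inside the gene spans given above, not at their outer ends. Capitals mark the E-box CACCTG or its reverse complement CAGGTG, the letters recognised by Snail and Zeb repressors at epithelial promoters, and the GC-box GGGCGG or CCGCCC. The windows are chr9:120933150-120933449 on the plus strand for Ctnnb1, chr11:100397741-100398040 on the minus strand for Jup, chr1:171437311-171437610 on the plus strand for F11r, chr7:65371195-65371494 on the minus strand for Tjp1, chr13:100552669-100552968 on the minus strand for Ocln and chr17:87635729-87636028 on the plus strand for Epcam.
Ctnnb1: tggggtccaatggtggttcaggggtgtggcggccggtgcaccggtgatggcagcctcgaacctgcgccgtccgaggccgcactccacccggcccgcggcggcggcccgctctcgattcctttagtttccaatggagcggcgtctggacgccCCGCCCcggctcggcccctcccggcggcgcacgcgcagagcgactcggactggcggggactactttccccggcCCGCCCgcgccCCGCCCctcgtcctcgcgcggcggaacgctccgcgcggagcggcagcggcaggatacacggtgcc
Jup: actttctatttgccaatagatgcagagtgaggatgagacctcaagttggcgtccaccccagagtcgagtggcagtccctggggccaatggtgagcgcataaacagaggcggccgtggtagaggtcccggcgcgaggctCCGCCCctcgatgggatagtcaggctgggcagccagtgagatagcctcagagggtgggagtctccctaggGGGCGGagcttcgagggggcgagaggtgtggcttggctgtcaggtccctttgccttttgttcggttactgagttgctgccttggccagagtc
F11r: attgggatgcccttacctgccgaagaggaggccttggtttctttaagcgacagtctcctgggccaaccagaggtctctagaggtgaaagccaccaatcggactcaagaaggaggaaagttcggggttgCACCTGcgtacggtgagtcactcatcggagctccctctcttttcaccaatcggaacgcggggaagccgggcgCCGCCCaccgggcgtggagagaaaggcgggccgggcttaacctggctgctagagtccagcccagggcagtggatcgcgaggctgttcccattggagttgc
Tjp1: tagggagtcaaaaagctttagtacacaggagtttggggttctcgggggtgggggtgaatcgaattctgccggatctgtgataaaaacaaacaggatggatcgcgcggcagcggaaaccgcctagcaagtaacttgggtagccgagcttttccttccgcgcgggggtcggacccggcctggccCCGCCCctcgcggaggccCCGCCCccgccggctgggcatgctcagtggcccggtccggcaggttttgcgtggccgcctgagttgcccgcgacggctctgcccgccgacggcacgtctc
Ocln: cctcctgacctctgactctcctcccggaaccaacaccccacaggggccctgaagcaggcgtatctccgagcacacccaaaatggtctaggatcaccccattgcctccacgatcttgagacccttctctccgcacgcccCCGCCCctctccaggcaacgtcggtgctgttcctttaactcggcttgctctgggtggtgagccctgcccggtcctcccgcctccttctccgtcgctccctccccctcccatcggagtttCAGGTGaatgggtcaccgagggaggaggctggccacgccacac
Epcam: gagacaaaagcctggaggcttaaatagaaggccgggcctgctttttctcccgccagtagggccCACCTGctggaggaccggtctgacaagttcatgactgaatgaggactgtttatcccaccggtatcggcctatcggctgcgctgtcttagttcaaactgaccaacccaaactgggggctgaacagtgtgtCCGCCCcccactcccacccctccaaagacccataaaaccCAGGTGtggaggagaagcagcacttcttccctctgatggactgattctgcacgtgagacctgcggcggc

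Of the 9 genes, 7 were matched in the promoter table, and Cdh1 and Ctnna1 were not. On both strands, the E-box occurred in 20% of 27025 promoters and the GC-box in 35.9%, and no E-box shared a base with a GC-box in the windows printed. The Epcam window held 2 E-boxes, the Ocln and F11r windows 1 each, and the Ctnnb1, Jup, Ctnnd1 and Tjp1 windows held none. At a second start listed for Ocln, which is not printed, the window held 2 E-boxes. The Ctnnb1 window held 3 GC-boxes, Jup and Tjp1 held 2, Ocln, F11r and Epcam held 1, and Ctnnd1 held none. The genes whose groups did not overlap thus included windows with and without an E-box, as did the others, and a match describes these letters only.

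The wider junction machinery was described from 10 lists holding 199 other genes, of which 137 were expressed highly enough to be tested with 7 libraries. By limma with Benjamini-Hochberg adjustment over 10894 genes, none rose and 3 fell in AP_OCA, which is 2.19% of the 137 beside 2.44% of all tested genes called in either direction. The share called was near that of all genes. The median log2 difference of the 137 genes was -0.20, beside 0.00 over all tested genes, and 92 were negative, beside 50% of all tested genes. Every AP_OCA library lay below every AP library for 23 of them, 16.8%, beside 12.1% of all tested genes. With all 8 libraries limma called none of 140, and 0% of 11311 genes, although 1830 genes (16.2%) and 21 of the 140 junction genes had an unadjusted p under 0.05.

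The genes that fell were Snai1, Ptpn1 and Pip5k1c. Snai1 encodes Snail, a transcriptional repressor of Cdh1. It was at 2.49 ± 0.910 CPM in AP and 0.457 ± 0.399 CPM in AP_OCA without replicate 2, with a log2 difference of -1.26 ± 0.30 (SE) and a limma adjusted p of 0.0484. Its level was low in every library, and that of AP_OCA replicate 2 was 0.509 CPM. With all 8 libraries its log2 difference was -1.24 ± 0.31 with a limma adjusted p of 0.26.

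Ptpn1 encodes a tyrosine phosphatase that acts on the cadherin-catenin complex. It was at 31.9 ± 3.57 CPM in AP and 16.3 ± 4.32 CPM in AP_OCA without replicate 2, a log2 difference of -0.95 ± 0.20 (SE) with a limma adjusted p of 0.0352. Pip5k1c encodes a lipid kinase that takes part in E-cadherin trafficking. It was at 11.7 ± 2.11 CPM and 5.86 ± 0.516 CPM, a log2 difference of -0.88 ± 0.21 (SE) with a limma adjusted p of 0.0486. AP_OCA replicate 2 was above all other libraries for both, at 78.3 CPM for Ptpn1 and 19.7 CPM for Pip5k1c. With all 8 libraries the log2 difference was -0.39 ± 0.50 for Ptpn1 and -0.48 ± 0.38 for Pip5k1c, at limma adjusted p of 0.684 and 0.523.

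Each of these calls was fragile. Over the alternatives, the limma adjusted p ran from 0.0142 to 0.191 for Snai1, from 0.0013 to 0.182 for Ptpn1 and from 0.00486 to 0.399 for Pip5k1c. When 1 further library was left out of the 7, each passed in 1 of 7 fits, the one without AP_OCA replicate 1.

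The order of the lists depended on AP_OCA replicate 2. With all 8 libraries the median log2 difference was -0.96 for desmosome genes, -0.75 for regulators of E-cadherin, -0.66 for tight junction genes, and -0.63 for both adherens junction genes and keratins. It was -0.49 for EpCAM partners, -0.27 for polarity complexes, -0.21 for shedding and turnover, -0.19 for gap junction genes and -0.01 for the beta-catenin list. The values that follow are without that library. The adherens junction genes then had a median of -0.33 over 18 tested genes, 15 of them negative and none past the test. The most abundant were Pvr, which encodes a nectin-like adhesion receptor, at 78.1 ± 4.33 CPM in AP and 77.3 ± 14.9 CPM in AP_OCA without replicate 2, and Nectin2, at 27.4 ± 2.53 and 22.1 ± 7.20 CPM. Of the 26 tight junction genes tested, 16 were negative and the median was -0.17. Ybx3, which encodes a transcription factor that binds ZO scaffolds, was at 189 ± 8.25 and 173 ± 31.6 CPM.

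Among the polarity complexes, the median over 15 genes was -0.07. Rac1, a small GTPase of the actin cytoskeleton, was at 90.9 ± 9.16 and 96.3 ± 4.55 CPM, and Crb3, an apical polarity determinant, at 76.1 ± 6.31 and 89.3 ± 12.2 CPM. The 7 desmosome genes had a median of -0.27, with Dsp at 152 ± 36.7 and 120 ± 24.3 CPM and the plaque gene Pkp3 at 141 ± 19.1 and 105 ± 18.1 CPM. The gap junction connexins Gjb2 and Gjb1 were at 153 ± 30.5 and 151 ± 12.8 CPM, and at 38.8 ± 3.03 and 37.6 ± 7.04 CPM.

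Without AP_OCA replicate 2, the keratins of simple epithelium were the only list of the 10 with a positive median, 0.31 over 6 genes, and none passed the test. With all 8 libraries the sign turned: that median was -0.63 and 5 of the 6 were negative. Krt8 was at 6779 ± 1126 CPM in AP and 5420 ± 1521 CPM in AP_OCA without replicate 2, and its partner Krt18 at 2602 ± 298 and 2786 ± 170 CPM. For 3 of the 6 keratins, every AP_OCA library except replicate 2 lay above every AP library, as for 11.1% of all tested genes. These were Krt7, Krt19 and Krt20, named after their values were seen, and Krt7 and Krt19 are also duct markers. The duct marker list summed to 274 to 338 CPM in AP and 374 to 471 CPM in these 3 AP_OCA libraries, with 3 of 8 markers above every AP library. Endothelial markers summed to 57.1 to 71.3 CPM in AP and 28.0 to 52.8 CPM in AP_OCA without replicate 2. In these 3 AP_OCA libraries 1 of 9 endothelial markers lay below every AP library, near the 12.1% of all tested genes. Stellate and fibroblast markers summed to 180 to 239 and 111 to 168 CPM, with 5 of 10 below every AP library, and no marker of these 3 lists was at 0 throughout. The part of these markers in the junction differences was not tested.

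The transcriptional regulators of E-cadherin had a median of -0.35 over 18 genes, with the epithelial transcription factor Elf3 at 53.0 ± 8.10 and 45.9 ± 6.85 CPM and the epithelial splicing factor Esrp1 at 49.1 ± 8.93 and 51.1 ± 10.9 CPM. The genes of shedding and turnover of E-cadherin had a median of -0.18 over 22 genes. Arf6, a GTPase of E-cadherin endocytosis, was at 135 ± 8.66 and 77.2 ± 27.4 CPM with a limma adjusted p of 0.0518, and Rab7, a GTPase of late endosomes, at 65.7 ± 7.53 and 70.1 ± 5.77 CPM. The EpCAM partners had a median of -0.06 over 5 genes, with the protease inhibitor Spint2 at 138 ± 6.84 and 133 ± 4.63 CPM and the protease St14 at 152 ± 16.8 and 112 ± 14.9 CPM. The beta-catenin destruction complex and target genes had a median of -0.17 over 16 genes, with the target Myc at 68.2 ± 7.79 and 53.0 ± 12.8 CPM and the kinase gene Csnk1a1 at 51.2 ± 9.68 and 57.4 ± 12.6 CPM.

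**Figure D4:**
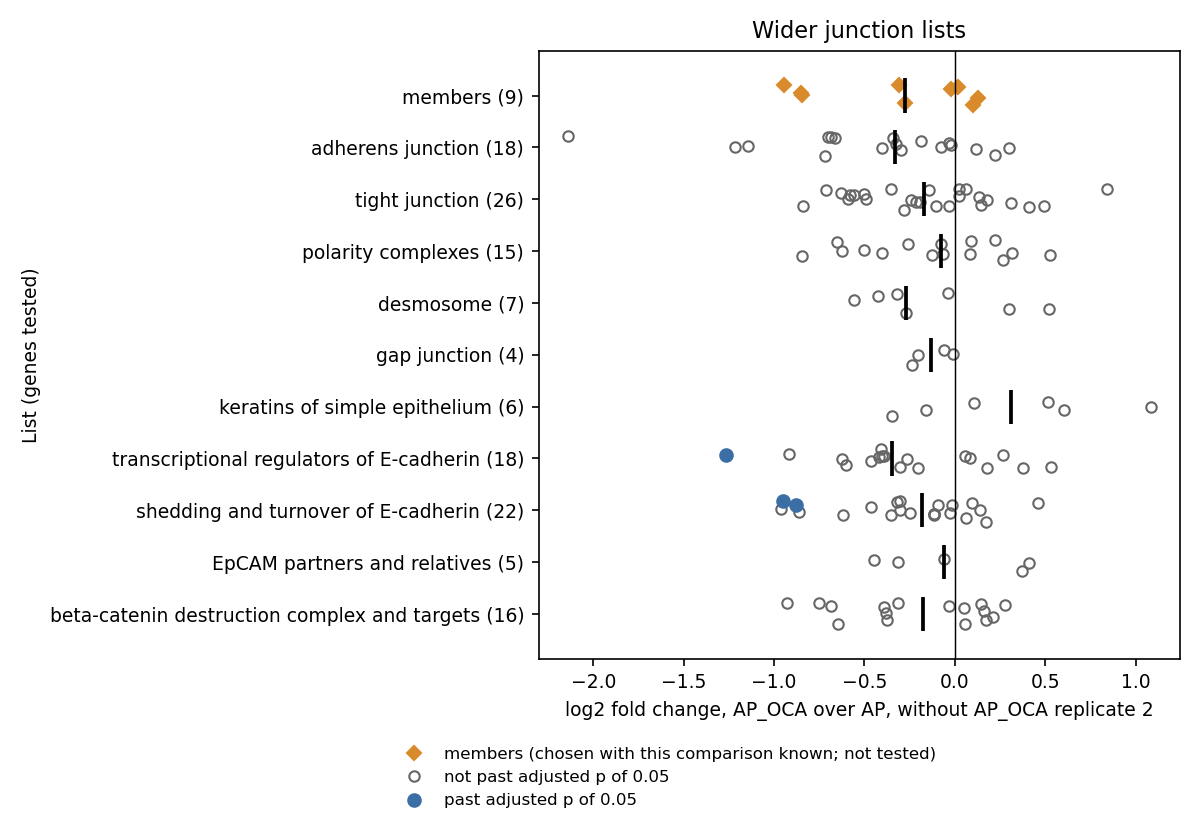
Log2 difference between AP_OCA and AP with 7 libraries for each tested gene of the 9 junction genes and the 10 wider lists, with each list's median. Without AP_OCA replicate 2 the keratins have a median of 0.31, the adherens junction genes -0.33, and the 3 genes past the threshold are Snai1, Ptpn1 and Pip5k1c.

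Over the 7 libraries without AP_OCA replicate 2, the 5 genes most like Cdh1 among 6682 genes included Ppp4r1, Zfp384 and Actn4, at ranks 1, 2 and 5 with Pearson's r of 0.993, 0.991 and 0.989. The libraries are those of both groups, so these correlations hold the group difference, and they are given as descriptions. Actn4 encodes an actin crosslinking protein and was at 323 ± 17.6 CPM in AP and 166 ± 53.2 CPM in AP_OCA without replicate 2. Ppp4r1, which encodes a regulatory subunit of a protein phosphatase, was at 46.6 ± 2.69 and 31.5 ± 4.77 CPM, and the zinc finger gene Zfp384 at 24.7 ± 1.74 and 15.8 ± 3.16 CPM. Among the other 8 junction genes, Jup ranked 114th with r of 0.948 and Ctnnb1 187th with 0.936. Ctnnd1 was the least alike, at rank 4783 with r of -0.497.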

How the data were processed

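RNA sequencing gave 8 libraries of primary mouse pancreatic acinar cells, 4 AP and 4 AP_OCA, grouped by their titles. Total RNA was taken and a SMARTER mRNA kit used, per the labels' protocols, and the genome build was mm10, per the submitters' processing notes. The aligner, counting tool, annotation and normalisation are not given in the sources used here. The authors deposited log2 values, and the values themselves show that 0.01 had been added and that the columns share almost the same sum, as after quantile normalisation. They were taken back from the log2 scale, freed of the offset and brought to a sum of 1000000 per library (CPM). The planned tests allowed for counts or linear values, and this step followed the plan for the latter. Tests covered genes averaging 1 CPM or more and used limma 3.58.1 in R 4.3.3 (trend and robust options, log2(CPM + 1), Benjamini-Hochberg threshold 0.05), since the values are not counts. Fold changes on this scale understate the change of low genes. The procedure was tested on simulated data.

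Gene positions, lengths and GC content came from GENCODE on GRCm38 (mm10). The genes and lists were chosen with earlier results of these data known. Besides the 9 genes, the text names from each list up to 4 genes past the test and the 2 most abundant, and the 5 genes most correlated with Cdh1. Of these, 2 genes are not reported here. Alternatives covered the pseudocount, filter, deposited scale, trend, sample weights, replicate block, length and GC content, and leaving out each library.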

Additional observations from a re-analysis of the deposited data

Results flagged for a closer look

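Of 62 groups of 4 values, 17 held a library far from the other 3, where chance flags about 1 in 20, or 3.1. Each value here is the gap to the nearest library as a share of the group's range, on the log2(CPM + 1) scale. AP_OCA replicate 2 gave 15 of them. It was the lowest for Tjp1 (0.931), Ocln (0.897), F11r (0.856) and Epcam (0.917) among the 9 junction genes. It was also the lowest for the adhesion and polarity genes Pvr (0.835) and Crb3 (0.895), the desmosome, connexin and keratin genes Dsp (0.889), Gjb2 (0.924), Gjb1 (0.868) and Krt18 (0.952), the epithelial regulators Elf3 (0.898) and Esrp1 (0.843), and Spint2 (0.947) and St14 (0.889). It was the highest for Pip5k1c (0.873). AP replicate 3 was the lowest AP library for Tjp1 (0.8294), at the edge of being counted, and for Csnk1a1 (0.856).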

How the results depend on the processing

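Over all alternatives, Cdh1, Ctnnb1, Jup, Ctnna1 and F11r kept a negative difference with 8 and with 7 libraries, and Ctnnd1, Tjp1, Ocln and Epcam changed sign in some. With 8 libraries limma called no gene, but 1052 genes and 12 junction genes with sample quality weights, and 0 to 266 and 0 to 3 when 1 library was left out, the highest being without AP_OCA replicate 2. With 7 libraries 266 genes and 3 junction genes were called. The counts were 156 and 1 with a pseudocount of 0.1 CPM, 6 junction genes with 5 CPM, 0 and 0 without a filter, 113 and 1 on the deposited log2 values, 14 and 0 without the trend option, 105 and 0 with the length and GC trend removed, and 1675 and 21 with quality weights. Leaving out 1 further library gave 7 to 973 genes and 0 to 11 junction genes: 973 and 11 without AP_OCA replicate 1, 119 and 1 without AP_OCA replicate 4, and at most 14 and 0 without AP_OCA replicate 3 or any 1 AP library. The cause was not tested. Samples of one number did not deviate together with 7 libraries (correlations of -0.055, 0.053 and -0.072). So few samples cannot settle whether the numbers pair the samples, and the sources used here do not say. A fit with the replicate number as a block gave 559 genes and 7 junction genes, 33 and 0 with the length and GC trend removed as well, and none with 8 libraries. The number of reads per library is unknown, which limits what can be said of low genes such as Snai1.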
